A study of Homo sapiens with 8 samples.

Results

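The 10 genes described here encode some of the proteins that join epithelial cells to each other and give them an apical and a basal side. They are CDH1, CTNNA1, CTNNB1, CTNND1 and JUP of the cadherin-catenin complex, NECTIN2 and AFDN of the nectin-afadin complex, and PARD3, PARD6B and CRB3 of the apical polarity complexes. They stood for 10 of 20090 protein-coding genes (GENCODE release 44 on GRCh37), and were chosen by their function and by measured H3K4me3 values, in which CTNND1 and PARD3 ran in opposite directions. The H3K4me3 values below are therefore descriptions of genes selected on those values. For each gene, every called peak that came within 1000 bp of a start site of 1 of its transcripts was counted.

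HCT8 cells, an established line from a human ileocecal colorectal adenocarcinoma, were co-cultured for 5 h with membrane vesicles (MVs) shed by the pathogen *V. cholerae* C6706, with MVs from the non-pathogenic *E. coli* MC1061, or were mock-treated with buffer. Each treatment was profiled by ChIP sequencing of H3K4me3, a histone mark of active promoters, and by FAIRE sequencing, which recovers nucleosome-free DNA. The 3 libraries with no antibody in their labels were taken as FAIRE from the extract protocol and the study's methods. There was 1 library per treatment and assay, so no difference has a replicate check and none was tested. All values come from 1 tumour line, and no measure of RNA or protein entered them.

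In adherens junctions, the E-cadherin molecules of neighbouring cells bind each other outside the cell, and p120 catenin, beta-catenin or plakoglobin hold their cytoplasmic tails. Alpha-catenin couples this complex to actin, and nectins with afadin form a parallel link. The PAR and Crumbs complexes mark the apical membrane and position the junctions, and in the intestine both systems keep the epithelium tight. H3K4me3 lies on the nucleosomes around active start sites, so a wider or denser peak is read as more of the mark there, and a FAIRE peak as open DNA.

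The H3K4me3 libraries held 13011839 tags with *V. cholerae* MVs, 10528314 with *E. coli* MVs and 3463875 with mock treatment, of which 56.1%, 53.9% and 38.6% lay in called peaks. The FAIRE libraries held 12077180 tags with *V. cholerae* MVs, 7888670 with *E. coli* MVs and 14474665 with mock treatment, of which 13.9%, 37.3% and 7.12% lay in peaks. Values are the authors' normalized tag counts, scaled to 10000000 tags per library, and intervals are exact 95% binomial intervals that cover counting error only. Scaling to the tags in peaks lowers every H3K4me3 log2 ratio against mock by 0.54 with *V. cholerae* MVs and 0.48 with *E. coli* MVs, so members are also given relative to all genes. Of 10 epithelial marker genes, 8 had an H3K4me3 peak with *V. cholerae* MVs, 9 with *E. coli* MVs and 8 with mock treatment. Of 12 marker genes of blood, stroma, endothelium, nerve, muscle and liver, 3, 3 and 1 did, and the mock peak was at CD14. The epithelial genes marked in each library were EPCAM, KRT8, KRT18, VIL1, CDX2, CLDN7, ELF3 and HNF4A, while CDX1 had a peak with *E. coli* MVs alone and KRT20, a keratin of differentiated intestinal cells, had none. In FAIRE, 10, 9 and 7 of the epithelial genes and 5, 8 and 6 of the others had a peak, in the same order of treatments.

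The 250 bases before the start site of CTNND1 are shown because this gene ran apart from the others and its base composition is taken up below. They are from GRCh37 (hg19), chr11:57529011-57529260, plus strand, 5′ to 3′. The start site used is at 57529261, the outermost within 100 bp of the start of the representative transcript at 57529274. Capitals mark the GC box GGGCGG and the TATA box TATAAA, each searched on both strands.
CTNND1: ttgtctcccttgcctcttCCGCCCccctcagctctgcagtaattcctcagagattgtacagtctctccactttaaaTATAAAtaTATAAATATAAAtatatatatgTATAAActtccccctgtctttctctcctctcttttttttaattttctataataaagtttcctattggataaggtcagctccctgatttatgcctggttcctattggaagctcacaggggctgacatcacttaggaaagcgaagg

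The CTNND1 stretch was AT-rich, with 38.8% G and C and 2 CpG, against medians of 62.4% and 17 over 20086 promoters. It held 4 matches to TATAAA between 174 and 144 bases before the start, of which the pair at 166 and 160 abut. Of the 10 members, CTNND1 was the one with a TATAAA match, which 9.33% of all promoters hold. A GC box was present in 10 of 10 members and in 57.2% of promoters. The AP-1 motif TGANTCA was found in 0 of 10 members and in 4.76% of promoters. These matches are letters in a window and say nothing of binding.

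All 10 genes carried an H3K4me3 peak at their canonical start site, the one of the transcript that the annotation ranks as representative, in each of the 3 libraries, where at means within 1000 bp. Over all 20090 genes, a peak near any start site was called at 13097 with *V. cholerae* MVs, 12908 with *E. coli* MVs and 12141 with mock treatment. Peaks at the canonical start were not counted over all genes, so nothing is read from 10 of 10 about the members. With *V. cholerae* MVs 9 of the 10 had more normalized tags than in mock, each by more than its counting error, and CTNND1 had fewer. With *E. coli* MVs the same 9 were above mock, and CTNND1 lay within counting error of it. Over the 12070 genes with a peak in each library, 91.2% with *V. cholerae* MVs and 96.0% with *E. coli* MVs had a log2 ratio against mock above 0, so 9 of 10 is near that of all genes. PARD3 was the highest of the 10 against mock in both comparisons and CTNND1 the lowest.

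**Figure D1:**
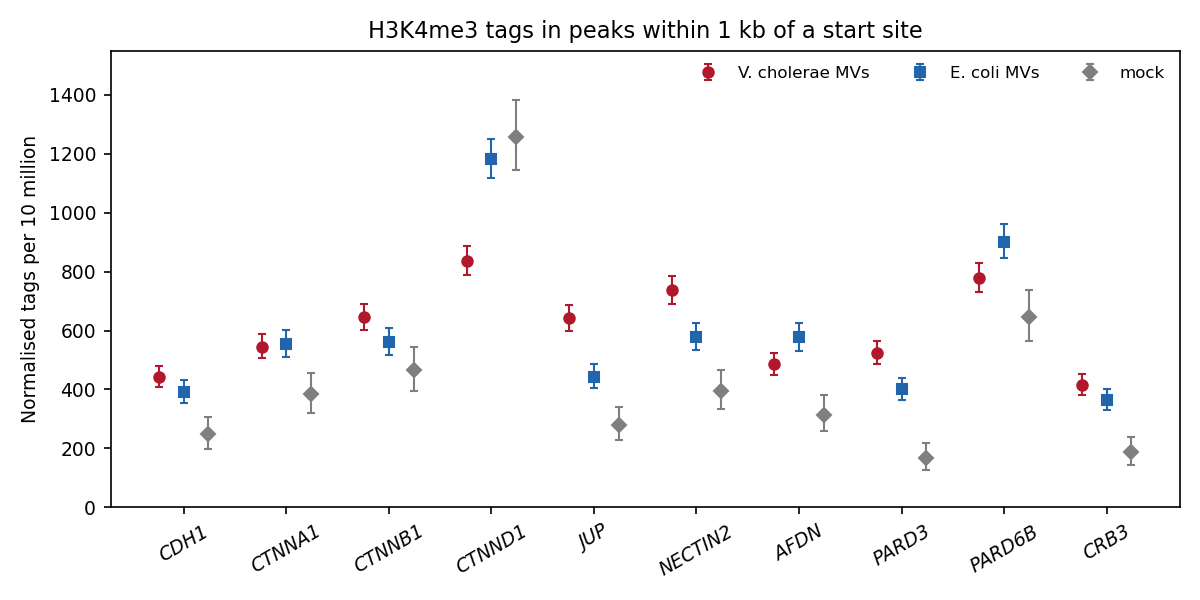
Normalised H3K4me3 tags (y axis, per 10000000 tags of the library) in peaks within 1000 bp of a start site of each of the 10 genes (x axis), with 1 point per library for V. cholerae MVs, E. coli MVs and mock treatment; bars are 95% counting intervals. The mock point is the lowest of the 3 at 9 genes, and at CTNND1 it is the highest, with 836.1 for V. cholerae MVs, 1181.5 for E. coli MVs and 1258.8 for mock.

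CDH1 encodes E-cadherin, the adhesion receptor that the catenins bind (chromosome 16, 68771195 to 68869440, plus strand). Its H3K4me3 count was 442.7 with *V. cholerae* MVs, 391.3 with *E. coli* MVs and 248.3 with mock treatment. Both MV values lay above mock, with log2 ratios of 0.83 (95% interval 0.51 to 1.18) and 0.66 (0.32 to 1.01), and between the MVs the difference was within counting error (0.18, −0.01 to 0.36). The peaks with *V. cholerae* and *E. coli* MVs began 138 and 93 bp before the start site, whereas the mock peak began 6 bp inside it.

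JUP encodes plakoglobin, a catenin of adherens junctions and desmosomes (chromosome 17, 39910856 to 39943183, minus strand). It had 642.5 with *V. cholerae* MVs, 442.6 with *E. coli* MVs and 280.1 with mock treatment. All 3 libraries were apart by more than counting error, with log2 ratios against mock of 1.20 (0.89 to 1.52) and 0.66 (0.34 to 0.99), and 0.54 (0.37 to 0.70) for *V. cholerae* MVs against *E. coli* MVs, the largest of the 10 between the MVs. Most tags lay at the canonical start (549.5, 388.5 and 225.2). A weaker site between 12351 and 14519 bp downstream, inside the gene, had 93.0 with *V. cholerae* MVs, 54.1 with *E. coli* MVs and 54.9 with mock treatment.

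CTNNB1, which encodes beta-catenin, the junction protein that is also the effector of Wnt signalling, had 645.6 with *V. cholerae* MVs, 560.4 with *E. coli* MVs and 464.8 with mock treatment. CTNNA1, which encodes alpha-catenin, the link to actin, had 545.7, 553.7 and 384.0 in the same order. Both genes exceeded mock, beyond counting error but by less than 1.5-fold, with log2 ratios of 0.47 and 0.27 for CTNNB1 and 0.51 and 0.53 for CTNNA1. Scaled to the tags in peaks, the CTNNB1 ratios with both MVs and the CTNNA1 ratio with *V. cholerae* MVs fall below 0. The CTNNB1 peak was longer with *V. cholerae* MVs (4580 bp) and *E. coli* MVs (4728 bp) than with mock treatment (2773 bp), and it held fewer tags per 1000 bp (141.0 and 118.5, against 167.6).

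CTNND1 encodes p120 catenin, which binds the membrane-near part of the cadherin tail and keeps cadherins at the surface (chromosome 11, 57520715 to 57587018, plus strand). It had 836.1 normalized tags with *V. cholerae* MVs, 1181.5 with *E. coli* MVs and 1258.8 with mock treatment, from 4, 4 and 5 peaks. With *V. cholerae* MVs it was below mock (log2 ratio −0.59, −0.75 to −0.43) and below *E. coli* MVs (−0.50, −0.62 to −0.38). With *E. coli* MVs it did not differ from mock beyond counting error (−0.09, −0.25 to 0.07). Of the 12070 genes with a peak in each library, 0.547% had a lower ratio with *V. cholerae* MVs against mock and 2.03% with *E. coli* MVs against mock.

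The tags of CTNND1 lay at several sites, which did not all behave alike. At the canonical start, counts were 495.7 with *V. cholerae* MVs, 641.1 with *E. coli* MVs and 646.7 with mock treatment, a log2 ratio of −0.38 (−0.61 to −0.16) with *V. cholerae* MVs against mock, short of 1.5-fold. A broad site between 13711 and 22272 bp downstream had 289.0, 446.4 and 444.6 in the same order, with −0.62 (−0.90 to −0.34) for *V. cholerae* MVs against mock. These 2 sites carried most of the gene's tags and were lower with *V. cholerae* MVs than in either other library. A site between 36788 and 38551 bp downstream was below mock with MVs of both kinds (18.4 with *V. cholerae* MVs and 33.2 with *E. coli* MVs, against 95.3), and a peak of 43.3 just beyond it was called in mock alone. A small site between 30855 and 32333 bp had 33.0, 60.8 and 28.9, above mock beyond counting error with *E. coli* MVs alone.

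**Figure D2:**
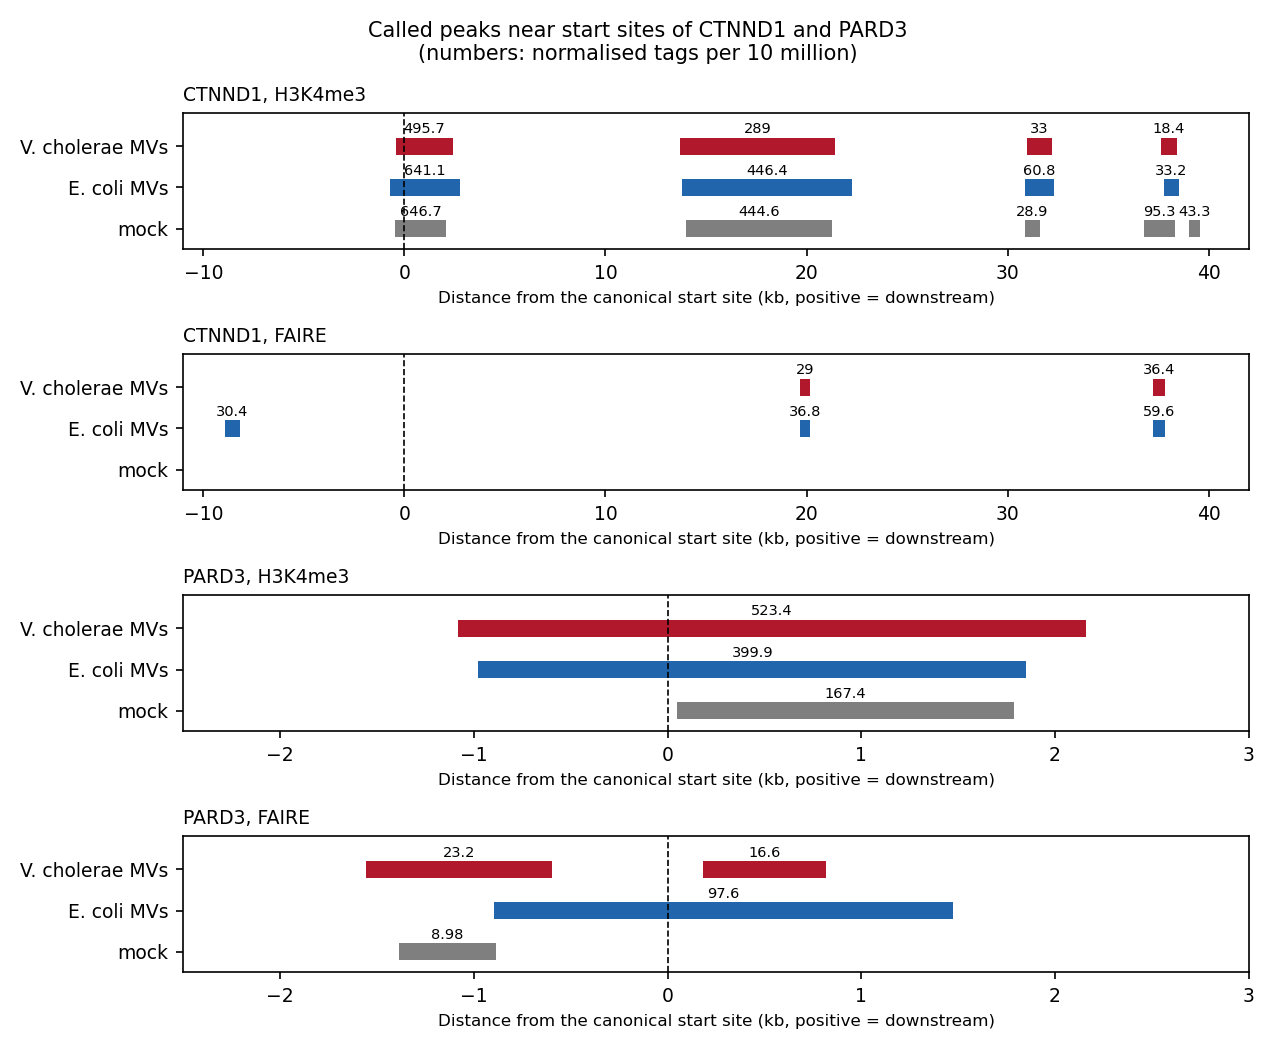
Called peaks of CTNND1 and PARD3 (bars, with the normalised tag count above each) by distance from the canonical start site (x axis, kb), in H3K4me3 and FAIRE, with rows for V. cholerae MVs, E. coli MVs and mock. At PARD3 the H3K4me3 peaks with MVs cross the start site and the mock peak begins 48 bp inside it; at CTNND1 no FAIRE peak lies at the canonical start.

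NECTIN2, an immunoglobulin-like adhesion receptor (chromosome 19, 45349432 to 45392480, plus strand), had 737.0 with *V. cholerae* MVs, 578.4 with *E. coli* MVs and 395.5 with mock treatment. Its log2 ratios against mock were 0.90 (0.64 to 1.17) and 0.55 (0.28 to 0.83), and 0.35 (0.20 to 0.50) between the MVs. Against mock, the difference was one of length. Between the MVs, the log2 ratio was 0.25 in length and 0.10 in tags per 1000 bp. The peak measured 4612, 3878 and 2563 bp and reached 1988, 1831 and 198 bp upstream of the start, while tags per 1000 bp were 159.8, 149.1 and 154.3. AFDN encodes afadin, which ties nectins to actin. It had 485.7, 576.5 and 314.6, log2 ratios against mock of 0.63 and 0.87, and the *V. cholerae* value lay below the *E. coli* value (log2 ratio −0.25, −0.41 to −0.08). Per 1000 bp of peak this order turned round, to 107.6 with *V. cholerae* MVs, 75.5 with *E. coli* MVs and 88.1 with mock treatment, since the peaks spanned 4515 bp with *V. cholerae* MVs, 7637 bp with *E. coli* MVs and 3571 bp in mock.

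PARD3, the scaffold of the PAR complex (chromosome 10, 34398488 to 35104253, minus strand), had 523.4 normalized tags with *V. cholerae* MVs, 399.9 with *E. coli* MVs and 167.4 with mock treatment. The log2 ratios against mock were 1.64 (1.26 to 2.06) and 1.26 (0.86 to 1.68), which 92.8% and 92.6% of the 12070 genes fell below, and 0.39 (0.21 to 0.57) between the MVs. The mock value rests on 58 tags, against 681 with *V. cholerae* MVs and 421 with *E. coli* MVs. Its single peak spanned 3240, 2830 and 1739 bp. With *V. cholerae* and *E. coli* MVs it reached 1080 and 978 bp before the canonical start, and in mock it ended inside the gene, 48 bp from the start. Both parts of the value moved, since tags per 1000 bp were also higher, at 161.5 and 141.3, against 96.3 in mock.

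PARD6B, the adaptor that binds PARD3, aPKC and CDC42, was the member with the most H3K4me3 after CTNND1, with 778.5 with *V. cholerae* MVs, 901.4 with *E. coli* MVs and 646.7 with mock treatment. It was above mock by little (log2 ratios 0.27 and 0.48), and scaled to the tags in peaks both ratios fall below 0. The peak was 5408 bp long with *V. cholerae* MVs, 9225 bp with *E. coli* MVs and 4254 bp in mock, and its tags per 1000 bp were 144.0, 97.7 and 152.0 in that order. CRB3 encodes the epithelial Crumbs protein, which organises the apical membrane, and had 416.5 with *V. cholerae* MVs, 364.7 with *E. coli* MVs and 187.7 with mock treatment. Its log2 ratios against mock were 1.15 (0.78 to 1.54) and 0.96 (0.58 to 1.36). All CRB3 peaks also lay within 1000 bp of a start site of SLC25A23, a mitochondrial carrier gene, so the tags cannot be told apart between the 2 genes.

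**Figure D3:**
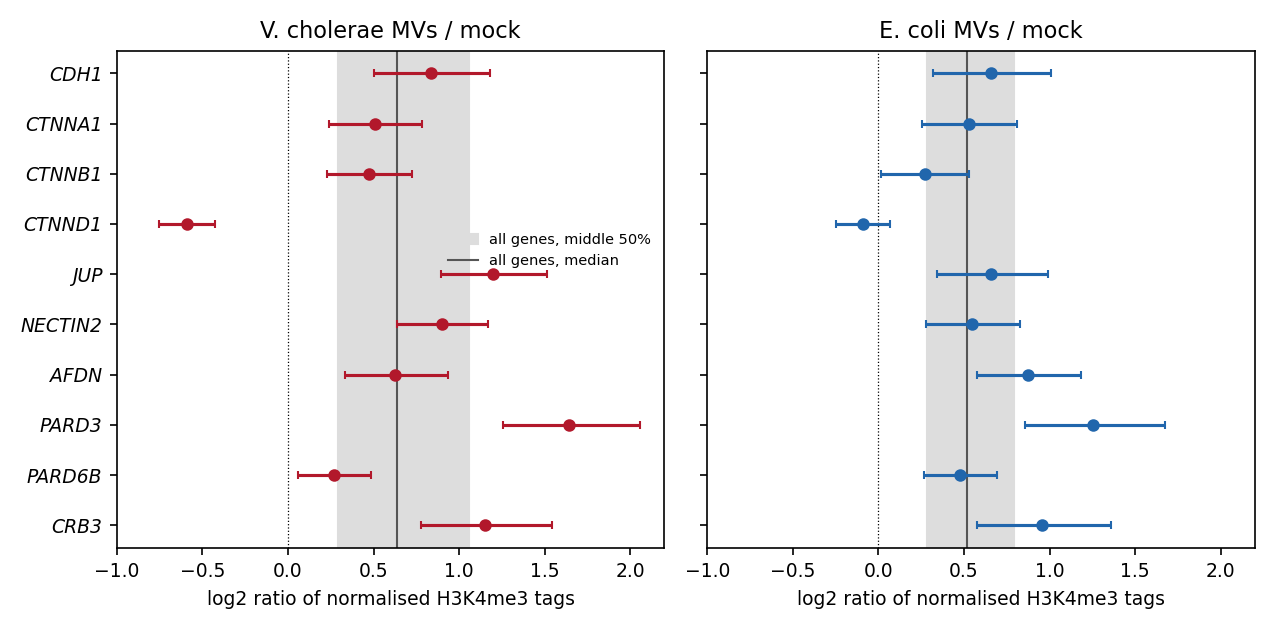
Log2 ratio of normalised H3K4me3 tags (x axis) for V. cholerae MVs against mock (left) and E. coli MVs against mock (right) at the 10 genes (y axis), with 95% counting intervals; the line and the grey band give the median and the middle 50% of the 12070 genes with a peak in each library. PARD3 (1.64 and 1.26) lies right of the band and CTNND1 (−0.59 and −0.09) left of it in both panels.

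With *V. cholerae* MVs against mock, 6 of the 10 genes were at least 1.5-fold higher (CDH1, JUP, PARD3, AFDN, NECTIN2 and CRB3), beside 53.5% of all 12070 genes, and 1 was at least 1.5-fold lower (CTNND1), beside 0.572%. CTNND1 lay just past that threshold, and was short of it with a 500 bp window or over peaks that share at least 1 bp or 50% of the shorter (log2 ratio −0.54 each), over peaks at least 8-fold over input (−0.48) and at the canonical start (−0.38). With *E. coli* MVs against mock, 5 were higher (CDH1, JUP, PARD3, AFDN and CRB3), beside 42.6%, and 0 lower, beside 0.356%. Between *V. cholerae* MVs and *E. coli* MVs, 0 were higher and 0 lower by that measure, beside 4.28% and 0.613%. Scaled to the tags in peaks, the split against mock was 3 higher to 1 lower for *V. cholerae* MVs and 1 higher to 0 lower for *E. coli* MVs. The shares of all genes were counted under the main scaling alone, so they do not stand beside this split. The medians of the 10 were 0.73, 0.60 and 0.18 for *V. cholerae* MVs and *E. coli* MVs against mock and for *V. cholerae* against *E. coli* MVs, where all genes had 0.64, 0.52 and 0.11. The counts of higher genes and the medians were thus near those of all genes. The 1 lower gene, CTNND1, was chosen by its direction, and nothing is read from the directions by which genes were chosen.

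Called length made up much of these ratios. All 10 members had a longer called span with MVs of either kind than with mock treatment, at CTNND1 by 10 bp with *V. cholerae* MVs. The median log2 ratio of the span was 0.39 with *V. cholerae* MVs and 0.58 with *E. coli* MVs, against 0.25 in both comparisons over all genes. Tags per 1000 bp had medians of 0.31 and 0.03, against 0.33 and 0.24 over all genes, and were higher than mock at 7 members with *V. cholerae* MVs and 5 with *E. coli* MVs. The shares of all genes with a longer span or more tags per 1000 bp were not counted. Nothing is therefore read from these member counts about the members. The mock library had the fewest tags of the 3, and its part in the shorter mock peaks was not tested.

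The density of the mark, pooled over all peaks of a gene, also ordered the genes differently in each library. In mock, CTNNB1 was densest at 167.6 tags per 1000 bp, followed by CDH1 (155.7), NECTIN2 (154.3) and PARD6B (152.0), whose intervals overlap. JUP was the least dense at 87.0, and did not differ from AFDN (88.1) and PARD3 (96.3) beyond counting error. With *V. cholerae* MVs the order ran from CDH1 (228.7, 210.4 to 248.1) over CRB3 (194.1) and CTNNA1 (170.5) to CTNND1 (66.2, 62.4 to 70.3), which was apart from the next, AFDN (107.6). With *E. coli* MVs CDH1 (206.1), CRB3 (174.2) and CTNNA1 (159.8) led again, and CTNND1 (83.3) and AFDN (75.5) were last with overlapping intervals. At the canonical start alone, the CTNND1 peak held 173.4 tags per 1000 bp with *V. cholerae* MVs, 184.4 with *E. coli* MVs and 254.0 in mock. In mock that exceeded the pooled density of each member, so the low rank of CTNND1 does not describe its start site. Over all genes with a peak, the median density was 161.7 with *V. cholerae* MVs, 149.4 with *E. coli* MVs and 123.7 with mock treatment.

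Base composition moved with the ratios. Over all genes split into 4 equal groups by the GC content of their mock peaks, the median log2 ratio with *V. cholerae* MVs against mock was 0.13, 0.46, 0.79 and 1.29 from the lowest to the highest GC group, and with *E. coli* MVs 0.23, 0.41, 0.61 and 0.95. CTNND1 was the 1 member in the lowest group (41.9%) and PARD3, at 65.1%, had the highest GC content of the 5 members in the top group, with CDH1, JUP, NECTIN2 and CRB3. Within its own GC group, 1.79% of genes lay below CTNND1 for *V. cholerae* MVs and 5.4% for *E. coli* MVs. CTNND1 and PARD3 were chosen on these ratios, so their ranks are a description. PARD3 stood above 75.8% and 76.3% of the genes of its group, CDH1 above 10.4% and 19.4%, and AFDN above 72.8% and 95.1% of its own. JUP stood above 40.0% and 19.7%, CRB3 above 35.7% and 50.3%, and PARD6B above 21.7% and 60.3%. NECTIN2 stood above 14.9% and 11.2%, CTNNA1 above 14.5% and 36.8%, and CTNNB1 above 12.0% and 7.33%. With *V. cholerae* MVs against mock, every member but PARD3 and AFDN thus lay below the middle of its GC group. For *V. cholerae* MVs against *E. coli* MVs, the medians of the groups were −0.10, 0.04, 0.18 and 0.34, and 2.45% of the genes of its group lay below CTNND1. The part of base composition in the members' ratios was not tested.

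**Figure D4:**
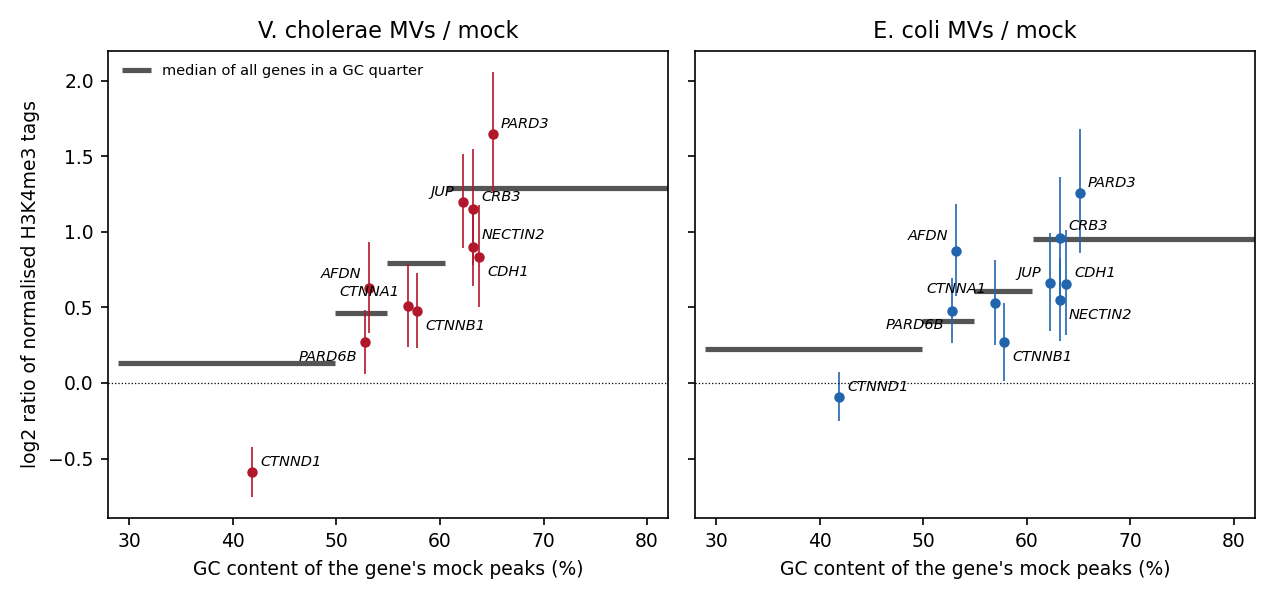
Log2 ratio of normalised H3K4me3 tags (y axis) against the GC content of the gene's mock peaks (x axis, %) for V. cholerae MVs against mock (left) and E. coli MVs against mock (right), with points for the 10 genes, 95% counting intervals, and a horizontal line over each of 4 GC groups for the median of all genes in it. The lines climb with GC content (0.13 to 1.29 on the left); CTNND1, at 41.9%, lies under its line and PARD3, at 65.1%, over its line in both panels.

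In FAIRE, peaks near a start site were called at 9 members with *V. cholerae* MVs, 10 with *E. coli* MVs and 8 with mock treatment, and at the canonical start at 7, 9 and 6. Over all 20090 genes a peak near a start site was called at 12543, 15620 and 8386, in the same order of libraries. Peaks at the canonical start were not counted over all genes, so the 7, 9 and 6 have no share beside them. An uncalled peak does not show closed DNA, as the weakest listed peak held 7 tags with *V. cholerae* MVs, 6 with *E. coli* MVs and 9 with mock treatment. The order of the libraries was the same at each of the 7 members that had a peak in every library, with *E. coli* MVs highest, *V. cholerae* MVs between and mock lowest. The share of tags in peaks over the whole library had the same order.

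JUP had the most FAIRE tags of the 10 with MVs, at 202.84 with *V. cholerae* MVs and 568.0 with *E. coli* MVs, against 32.49 with mock treatment. Its log2 ratios against mock were 2.64 (2.19 to 3.13) and 4.13 (3.69 to 4.59), and at the canonical start the counts were 127.5, 372.7 and 24.2. NECTIN2 had 80.3 with *V. cholerae* MVs, 477.8 with *E. coli* MVs and 19.99 with mock treatment. Its promoter itself had a peak with MVs alone (80.3 and 425.9), and the 2 mock peaks lay at internal start sites 27321 and 35596 bp downstream. AFDN likewise had promoter peaks of 29.8 with *V. cholerae* MVs and 93.8 with *E. coli* MVs, and its mock peak (8.98) lay 124381 bp inside the gene.

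PARD6B had no mock peak and a promoter peak of 84.5 with *V. cholerae* MVs and 379.0 with *E. coli* MVs. Per 1000 bp it was the densest of the members with MVs, at 72.5 and 227.1 tags, above 98.3% and 99.7% of the genes with a peak. The peaks reached 882 and 987 bp before the start. CTNND1 had no FAIRE peak at its canonical start in any of the 3 libraries. It had peaks with MVs at a start site 19682 to 20186 bp downstream (29.0 with *V. cholerae* MVs and 36.8 with *E. coli* MVs) and others (36.4 and 59.6) within the H3K4me3 site between 36788 and 38551 bp, whose H3K4me3 tags were fewer with MVs than in mock. A further peak with *E. coli* MVs (30.4) lay near start sites of both CTNND1 and BTBD18.

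PARD3 had 39.8 with *V. cholerae* MVs, 97.6 with *E. coli* MVs and 8.98 with mock treatment, where the mock value rests on 13 tags. The *V. cholerae* tags fell in 2 peaks on either side of the start, the *E. coli* peak ran over it, and the mock peak lay 887 to 1387 bp upstream. CDH1 had 70.44, 167.2 and 38.69 in the order *V. cholerae* MVs, *E. coli* MVs and mock, with 31.5, 128.0 and 18.7 at the promoter. Its log2 ratio with *V. cholerae* MVs against mock (0.86, 0.36 to 1.38) was the smallest of the 7. CRB3 had 39.7, 124.2 and 16.6, again in peaks shared with SLC25A23. CTNNA1 had 72.08, 195.3 and 26.9. With *V. cholerae* MVs its nearest peak ended 1069 bp before the canonical start, just outside the 1000 bp that count as at it. Another of its peaks with *V. cholerae* MVs lay near LRRTM2. CTNNB1 had no peak with *V. cholerae* MVs, 96.3 with *E. coli* MVs and 28.3 with mock treatment.

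**Figure D5:**
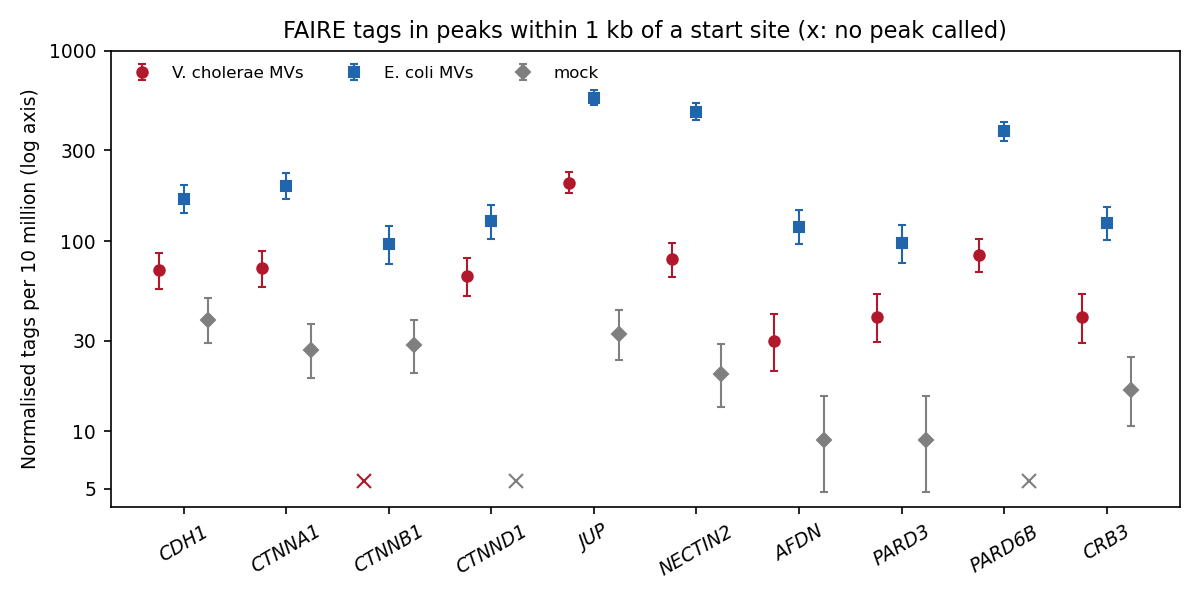
Normalised FAIRE tags (y axis, log scale, per 10000000 tags of the library) in peaks within 1000 bp of a start site of each of the 10 genes (x axis), for V. cholerae MVs, E. coli MVs and mock treatment, with 95% counting intervals; a cross marks a library with no called peak. E. coli MVs are highest at every gene (JUP 568.0), and no mock peak was called at CTNND1 and PARD6B.

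Of the 7 members with a FAIRE peak in each library, 7 had at least 1.5-fold more tags with *V. cholerae* MVs than in mock, beside 76.0% of 6956 genes, and 0 were lower, beside 4.51%. With *E. coli* MVs 7 were higher, beside 98.2%, and 0 lower, beside 0.23%. Between *V. cholerae* MVs and *E. coli* MVs 0 were higher, beside 0.604%, and 7 lower, beside 93.0%. The medians of the 7 were 1.73, 3.44 and −1.49 in these comparisons, where all genes had 1.40, 3.15 and −1.65. Scaled to the tags in peaks, 4 of the 7 were higher with *V. cholerae* MVs, 4 with *E. coli* MVs, and between the MVs 1 was lower with those of *V. cholerae*. For *V. cholerae* MVs against mock, the count was 3 of 5 over peaks that share at least 1 bp, since at NECTIN2 and AFDN the peaks of the 2 libraries lay at different sites, 4 of 6 with a 500 bp window and 2 of 7 per 1000 bp of peak. No share of all genes was counted under these alternatives, and those given above belong to the main setting. The members' FAIRE values thus moved with the libraries as a whole, and treatment and the share of tags in peaks cannot be told apart. Of the members' FAIRE peaks, 13 of 23 with *V. cholerae* MVs, 14 of 25 with *E. coli* MVs and 5 of 13 with mock treatment overlapped an H3K4me3 peak of the same treatment. This overlap was not counted over all genes, so nothing is read from it about the members.

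Among 30 other genes of adherens junctions and polarity, 27 had an H3K4me3 peak in each library. Their median log2 ratios were 0.85 with *V. cholerae* MVs against mock, 0.81 with *E. coli* MVs against mock and 0.17 between the MVs. At least 1.5-fold higher than mock were 17 and 16 of the 27, beside the 53.5% and 42.6% of all genes, and 0 were lower in either comparison, beside 0.572% and 0.356%. PARD6G, a paralog of PARD6B, was the highest (2.33 and 1.93), followed by PARD3B, a paralog of PARD3 (1.77 and 1.29). LIMA1, an actin-binding protein that associates with alpha-catenin (−0.08 and 0.13), and LIN7C, a scaffold of the Crumbs complex (−0.06 and 0.08), were lowest and within counting error of mock. By the distance between pairs of log2 ratios against mock, NECTIN1 (0.07) and PARD3B (0.13) were closest to PARD3. LIMA1 (0.55) and LIN7C (0.56) were closest to CTNND1. Since CTNND1 and PARD3 were selected on these ratios, the distances are a description.

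Of 8 regulators of CDH1 transcription, 5 had an H3K4me3 peak in each library (SNAI1, ZEB1, GRHL2, OVOL1 and KLF4), and SNAI2, ZEB2 and TWIST1 had none. OVOL1, a factor that maintains epithelial identity, had log2 ratios against mock of 1.40 (1.07 to 1.74) with *V. cholerae* MVs and 1.00 (0.65 to 1.35) with *E. coli* MVs, and KLF4, a factor of differentiated epithelium, had 1.15 and 0.95. The lowest with *V. cholerae* MVs were ZEB1, a repressor of CDH1 (0.67), and GRHL2, an activator of it (0.40), and with *E. coli* MVs SNAI1, another repressor (0.53), and ZEB1 (0.38). Each named ratio exceeded 0 beyond counting error, as 91.2% and 96.0% of all genes lay above 0 in these comparisons, so nothing is read from it about these regulators.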

How the data were processed

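HCT8 cells were profiled by H3K4me3 ChIP sequencing and by FAIRE sequencing, with 1 library per treatment and assay, and 6 peak lists were used. The 2 input samples were not analysed here. Tools named in the submitters' processing notes are HOMER 4.7.2, SAMtools 1.3.1 and Bowtie 1.1.2, with the hg19 build. The paper names MACS and HOMER for peak calling. Per the file headers, the authors called peaks in each library against an input, in the histone mode of HOMER, with peaks at least 1000 bp apart, a Poisson p of 1e-04 and at least 4-fold enrichment over input. The deposited normalized tag count is a signal per 10000000 tags of the library. The deposited peak tags are whole counts in 4 lists and were scaled by the authors to the input in the other 2. The deposited ratio of peak over input was used as an alternative filter, and the authors' columns of positions and p-values were not tested.

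Whole tags were recovered from the normalized counts (largest distance from a whole number 0.0721). A gene was given the summed normalized counts of its peaks, up to 1000 bp from a start site of GENCODE release 44 on GRCh37, and log2 ratios over all genes use those with a peak in the 3 libraries of an assay. A threshold of 1.5-fold was used to count genes. Intervals are exact 95% binomial (Clopper-Pearson) intervals given the tags of both libraries. They cover counting error only, and PCR copies make the true error larger. With 1 library per treatment no test between treatments was possible. Promoter sequence and GC content were read from GRCh37, and some promoter sequences are not reported here. The members and lists were chosen with earlier results of these data known. Named genes are the members, of each other list the 2 highest and 2 lowest in H3K4me3 for each MV treatment, the 2 other genes closest to PARD3 and to CTNND1, and genes that share a counted peak. The alternatives changed the scaling, window, peak threshold, overlap and unit, and the canonical start site alone was added after the data were examined. The ratio and interval were tested on simulated tag counts. Analyses used Python 3.11.15, numpy 2.4.6, pandas 2.3.3, scipy 1.17.1 and matplotlib 3.10.9.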

Additional observations from a re-analysis of the deposited data

How the results depend on the processing

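PARD3 had a log2 ratio above 0 against mock in H3K4me3 under every alternative (0.75 to 1.64 with *V. cholerae* MVs and 0.55 to 1.26 with *E. coli* MVs). CTNND1 was below 0 with *V. cholerae* MVs (−1.23 to −0.38), and ran from −0.61 to 0.022 with *E. coli* MVs. The alternatives reuse the tags on which both genes were chosen, so these signs are a description. No paired analysis was possible because the labels give a single library for each treatment and assay. For the member counts below, no share of all genes was counted under the alternatives.

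Scaled to the tags in all called peaks, the members' median log2 ratio was 0.19 with *V. cholerae* MVs and 0.12 with *E. coli* MVs against mock in H3K4me3, and 3 and 1 members were at least 1.5-fold higher. In FAIRE the medians were 0.76 with *V. cholerae* MVs and 1.05 with *E. coli* MVs against mock and −0.061 between the MVs, with 4 and 4 members higher than mock and 1 lower between the MVs. CDH1 turned to −0.10, −0.28 and 0.18 in these comparisons, and PARD3 to 0.13 between the MVs. Relative to the median of all genes, the H3K4me3 medians were 0.095 and 0.085, with 1 and 1 members higher than mock, and CTNND1 became 1 lower member for *E. coli* MVs against mock and 1 for *V. cholerae* MVs against *E. coli* MVs. AFDN turned to −0.0092 with *V. cholerae* MVs, where CTNNA1, CTNNB1 and PARD6B also turned negative. With *E. coli* MVs against mock, CTNNB1 and PARD6B turned negative. The FAIRE medians were then 0.33, 0.29 and 0.17, with 3 and 2 members higher than mock, 1 lower than mock with *E. coli* MVs and 1 lower between the MVs. CDH1 turned to −0.53, −1.04 and 0.40, CRB3 to −0.14, −0.24 and 0.0058, CTNNA1 to −0.29 with *E. coli* MVs against mock and 0.21 between the MVs, where JUP was 0.17 and PARD3 0.36.

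Per 1000 bp of called peak, 2 members were higher in H3K4me3 with *V. cholerae* MVs and 0 with *E. coli* MVs, where the median was 0.027 and 1 was lower (PARD6B), and AFDN turned to −0.22. CTNNB1 and NECTIN2 also turned negative with *E. coli* MVs, and CTNNB1 and PARD6B with *V. cholerae* MVs. Between the MVs, AFDN, CTNNA1 and PARD6B turned positive. In FAIRE the medians were 0.48, 1.23 and −0.72, with 2 members higher with *V. cholerae* MVs, and CTNNA1 at −0.19. With the 500 bp window, peaks at least 8-fold over input, peaks sharing 1 bp or 50% of the shorter, or the canonical start alone, CTNND1 was not 1.5-fold lower with *V. cholerae* MVs (0 members). In FAIRE with *V. cholerae* MVs against mock, 4 members were higher with the 500 bp window, 3 (median 0.75) with either overlap, for 5 members with a value, and 3 of 4 at the canonical start, where 4 were higher with *E. coli* MVs than with mock and 4 lower between the MVs. The cause of these changes was not tested. The mock values of PARD3 rest on few tags, 58 in H3K4me3, where mock was the shallowest library, and 13 in FAIRE, where it was the deepest.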
